A study of Canis lupus familiaris with 29 samples.

Results

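A run of 37 consecutive identifiers in the deposited expression table of canine lymphoma nodes, from ENSCAFG00000022708 to ENSCAFG00000022744, was described across 29 libraries. It was chosen as the run that holds ENSCAFG00000022728, the gene with the highest mean level of the table, and had been given the working name of mitochondrial genome transcripts. All 37 identifiers were among the 24580 genes listed. Rows are named below by G and their last 5 digits, so that G22728 stands for ENSCAFG00000022728. The table gives Ensembl identifiers without symbols, and the reference gene table paired 0 of them with a symbol, so neither the mitochondrial origin of a row nor the product it encodes could be checked, and each row is given by its identifier. The run was thus selected on the mean FPKM of G22728, whose high level is given as a description.

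The mitochondrial genome of mammals is a small circular molecule present in many copies per cell. It encodes core subunits of the respiratory chain complexes and of the ATP synthase, together with the ribosomal and transfer RNAs needed to translate them inside the organelle. It is transcribed as long precursors from both strands that are cut into the single RNAs, so its genes share their transcription while the mature RNAs differ in stability. In RNA from whole tissue its transcripts often rank among the most abundant, and their part of the total varies with cell type and with the state of the cells.

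The tissue was lymph node from pet dogs with newly diagnosed, untreated large B-cell lymphoma, from a trial that did not admit certain herding breeds. Dogs received repeated doses of a placebo or of valspodar at 7.5 mg/kg by mouth between the biopsies, and per the labels doxorubicin was started only after the second biopsy. Valspodar inhibits ABCB1, a transporter that pumps drugs out of cells. The placebo group held 6 dogs, sampled before treatment (Day 0, 6 libraries) and again on Day 4 (5 libraries), and the valspodar group held 9 dogs with 9 libraries on each day. Ages were given for 14 dogs and ran from 5.3 to 10.4 years in the placebo group and from 3.8 to 11.6 years in the valspodar group. The first sample was an incisional wedge biopsy and the second a tru-cut biopsy, so day and kind of biopsy cannot be told apart. The dog was the replicate, and each dog is named by its site code (MN, PD or PENN) and number. Both days were available for 14 dogs, while PD04 of the placebo group had Day 0 alone. Levels are FPKM (fragments scaled by transcript length and by the mapped fragments of the library). The methods state a minimum of read pairs for every sample, while the table gives no read number per library. Its low values place the relative depth of 28 libraries between 0.849 and 1.84 times that of one taken as the unit, and that of MN02 Day 4 at 0.288, the lowest. Identifiers could be paired with symbols for only 5 genes of the marker lists, so the B-cell identity of the nodes was not checked.

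The rows of the run fell into 3 kinds. Of the 37, 15 were above 0 FPKM in every library, 13 were above 0 in some libraries only, and 9 were listed at 0 in every library. A mean of at least 1 FPKM, the filter for the tests below, was reached by 28 rows, the 15 and the 13. Of the rows listed next to the run, G22704 was above 0 in 1 library, at 708 FPKM, G22705 did not exceed 1.98 FPKM, and G22759 and G22762 were at 0 throughout.

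The 15 rows above 0 everywhere spanned a wide range of levels. Row G22728 was the highest, with a mean of 33524 ± 26195 FPKM (SD, n = 29 libraries), and its level ran from 8432 in MN10 Day 4 through a median of 24902 to 130304 in PENN04 Day 4. It was the highest of the 15 in 29 of 29 libraries and the highest of all genes in each library but the pair from MN10, where it took place 3. Next came G22729, with 23616 ± 17832 FPKM, then G22726, with 22797 ± 17091, and G22730, with 22635 ± 17462. Row G22723 followed with 16150 ± 12781 FPKM and G22732 with 14080 ± 11862. These 6 rows were the 6 genes with the highest mean FPKM of the whole table. The lowest were G22709, with a mean of 1491 FPKM and a median of 560, and G22711, with a mean of 938 and a median of 357. Without MN02 Day 4 their means were 899 and 548 FPKM.

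Some neighbours in this order could not be separated. Row G22728 exceeded G22729 in every library, by a median ratio of 1.42, with a lowest ratio of 1.13. In contrast, G22729 exceeded G22726 in 18 of 29 libraries and G22726 exceeded G22730 in 16 of 29, and by the median over libraries G22730 came second. Likewise G22723 exceeded G22732 in 19 of 29 libraries, with ratios from 0.568 to 2.28. Further down, G22735 over G22742, G22713 over G22717, G22717 over G22740 and G22740 over G22739 kept their order in all 29 libraries. FPKM is a level per length, but the lengths of the rows were not given. The order is therefore that of the listed FPKM, and the part of the length scaling in it was not tested.

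**Figure D1:**
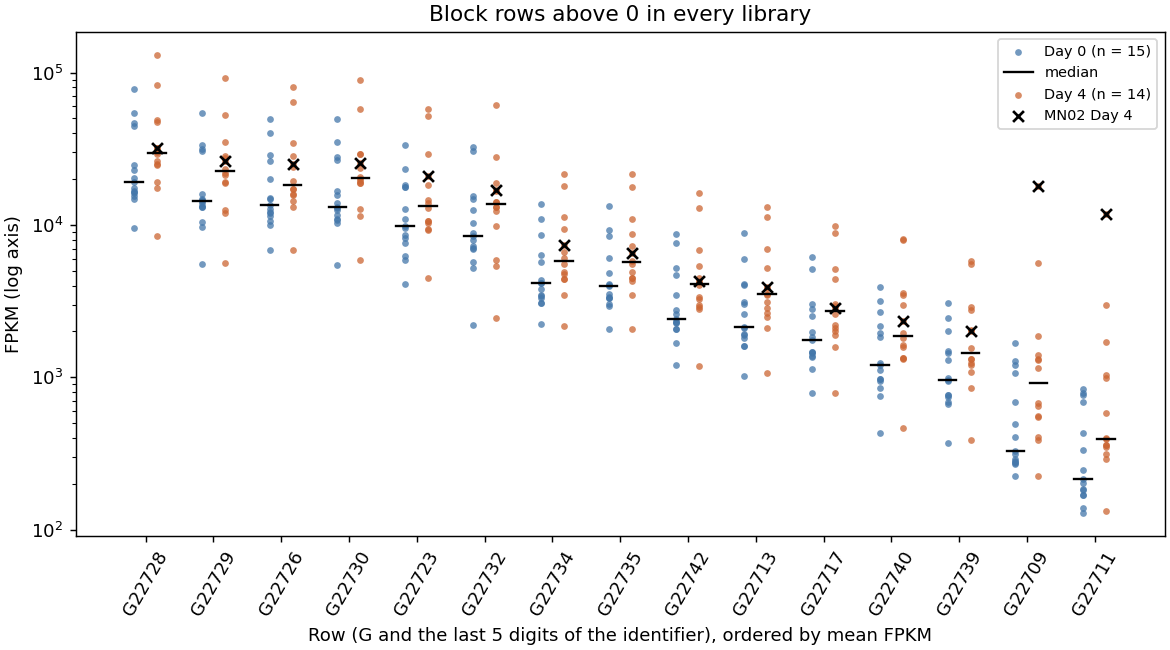
FPKM on a log axis of the 15 rows above 0 in every library, with each point a library, Day 0 (15 libraries) on the left and Day 4 (14 libraries) on the right of each row, and short lines at the medians. The cross marks MN02 Day 4, which lies among the other libraries for most rows but reaches 18088 FPKM for row G22709 and 11867 FPKM for row G22711.

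As a share of the summed FPKM of a library, the run took from 5.16% in MN10 Day 0 to 41.9% in PENN04 Day 4, with a median of 13.5%. Row G22728 alone took from 1.06% to 8.61%. On Day 0 the share ran from 9.94% through a median of 15.8% to 29.9% in the 6 placebo libraries, and from 5.16% through 10.7% to 22.5% in the 9 valspodar libraries. On Day 4 the 5 placebo libraries had 11.4% (MN08), 13.1% (MN09), 16.8% (MN05), 23.2% (PENN05) and 41.9% (PENN04), and the 9 valspodar libraries ran from 5.28% through 16.7% to 35.9%. The ranges of the 4 groups overlapped. Since the share uses FPKM, it is not a share of fragments.

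Between the days of a dog the share moved in both directions. It was higher on Day 4 in 11 of 14 dogs, namely 3 of 5 given placebo and 8 of 9 given valspodar. The greatest differences were in PD05, from 12.7% to 35.9%, in PENN04, from 18.7% to 41.9%, and in MN07, from 10.7% to 24.2%. It was lower on Day 4 in PD03 (22.5% to 14.5%), PENN05 (29.9% to 23.2%) and MN08 (12.8% to 11.4%), and nearly level in MN10 (5.16% to 5.28%). The rows moved together: all 15 were higher on Day 4 in 8 dogs and all 15 were lower in MN08 and PD03. In the same dogs the summed FPKM outside the run changed little, and its ratio of Day 4 to Day 0 lay between 0.877 and 1.13 in all but MN02, where it was 1.36.

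**Figure D2:**
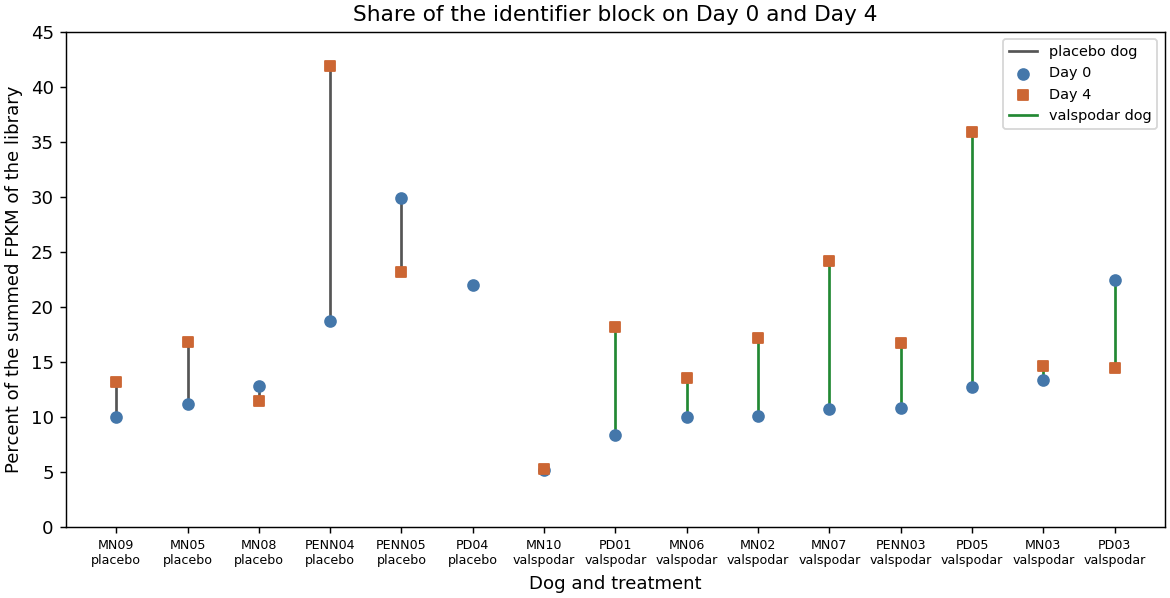
Percent of the summed FPKM of a library taken by the 37 rows, for each dog (x axis), with Day 0 as circles and Day 4 as squares joined by a line, grey for placebo and green for valspodar. The share was higher on Day 4 in 11 of the 14 dogs with both days, with PENN04 (41.9%) and PD05 (35.9%) the highest libraries.

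The 15 rows varied more between libraries than other genes. The SD of log2(FPKM + 1) over the 29 libraries was 0.84 in the steadiest row (G22734) and 1.46 in G22711, with a median of 0.91. The median over the 11677 genes past the filter was 0.35, and it was 0.30 over the 107 genes outside the run that had at least the mean level of G22711 over all libraries, MN02 Day 4 included. These values are a description over libraries, of which 14 pairs share a dog.

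Levels of the rows rose and fell together from library to library. Over the 105 pairs of rows, Spearman's rho across the 29 libraries had a median of 0.92 and ran from 0.76 for G22723 with G22732 to 0.99 for G22734 with G22735, and G22739 with G22740 had 0.98. The 5 lowest values all involved G22732. These libraries share dogs, and all rows of a library share its scaling, so no p is given for them. Across the 15 dogs on Day 0, Pearson's r of G22728 with each of the other 14 rows, on log2(FPKM + 1), ran from 0.90 (G22732) to 0.98 (G22742) and Spearman's rho from 0.75 (G22711) to 0.96 (G22742). Of these 14 relations, all passed an adjusted p of 0.05 for Pearson's r by a permutation test, with Benjamini-Hochberg adjustment over all 11676 other genes, against 0.128% of those genes, most of which were these rows (14 of 15). The smallest p that the permutations can give, 1e-05, was reached by 12 of the 14. For Spearman's rho, 3 of the 14 passed, against 0.0257% of all genes: G22713, G22729 and G22742. That count was 10, against 0.0856%, when FPKM was scaled on the genes outside the run, and that of Pearson's r was 14, against 0.128%. Without PENN05 and PD04, the dogs farthest from the median of G22728, Pearson's r ran from 0.83 to 0.97 and 9 of 14 passed by the same permutation test, against 0.103% of all genes, and 0 of 14 passed for Spearman's rho (0% of all genes). Across the 14 dogs on Day 4, Pearson's r ran from 0.64 to 0.99 and 12 of 14 passed, against 0.163% of all genes, with 9 of 14 for Spearman's rho, against 0.111%.

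Beside this shared rise and fall, the proportions among the rows differed between dogs. The proportions are given as the share of each row in the sum of the 15, so they add up to 100% in a library and are not independent of each other. Row G22732 took 13.97% in PD03 Day 0 and 13.4% in PD03 Day 4, against 5.21% and 5.77% in MN10. Row G22723 took 14.4% and 13.2% in MN08, against 6.63% and 7.20% in MN05. In these dogs a high or low share on one day went with a like share on the other, as in the map of proportions. Across 14 dogs, the correlation of Day 0 with Day 4 for the log2 share had a median Pearson's r of 0.78 over the 15 rows, with 0.91 for G22734, 0.88 for G22723, 0.87 for G22729 and 0.81 for G22732. It was lower for G22730 (0.58), G22739 (0.43) and G22740 (0.37), and lowest for G22709 (-0.05) and G22711 (-0.08), which had 0.44 and 0.31 without MN02.

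**Figure D3:**
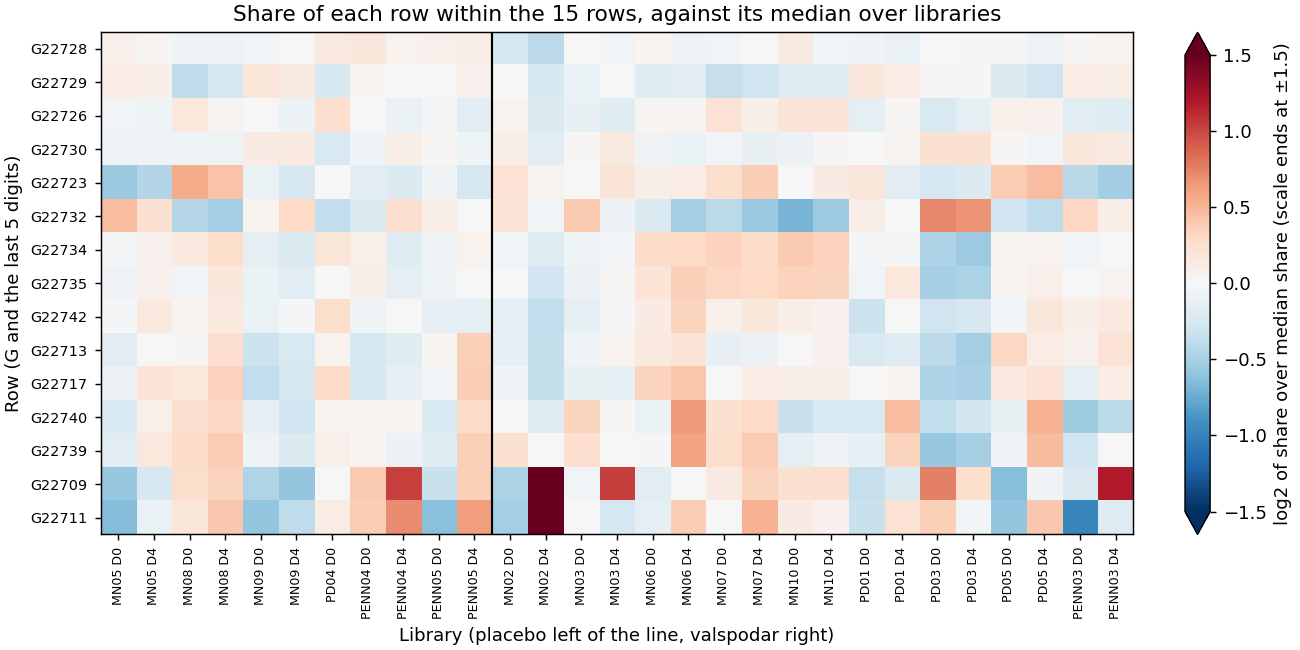
Share of each of the 15 rows (y axis) in their sum, as log2 of its ratio to the median over the 29 libraries (x axis, the 2 days of a dog side by side), with red for above and blue for below. The 2 days of a dog tend to have like colours, as in PD03 for row G22732 (13.97% and 13.4% of the sum), while rows G22709 and G22711 stand out in MN02 Day 4, beyond the end of the colour scale.

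The same relation was computed for the levels. For row G22728, Pearson's r of Day 0 with Day 4 across 14 dogs was 0.53 (permutation p = 0.0564) and Spearman's rho was 0.28 (permutation p = 0.332). Over the 15 rows r had a median of 0.52, against a median of 0.64 over all 11677 genes tested. Only G22732 (r = 0.60, permutation p = 0.0266, adjusted p = 0.0466) passed the adjusted threshold, and its Spearman's rho of 0.49 (permutation p = 0.0798) did not. Of all genes, 57.9% passed. When PENN05 and PENN04, the dogs farthest from the Day 0 median of G22728, were left out, r of G22728 was 0.27, and no row passed, against 60% of all genes.

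Rows G22709 and G22711 stood apart from the other 13 in one library. In MN02 Day 4 they reached 18088 and 11867 FPKM, against 283 and 183 in MN02 Day 0, while G22728 went from 14865 to 32146 and G22732 from 8489 to 16879 between the same libraries. They took 8.77% and 5.76% of the sum of the 15 rows there, and at most 1.03% and 0.487% in any other library. The next highest levels were 5617 FPKM for G22709 and 2976 for G22711, both in PENN04 Day 4. MN02 Day 4 has the lowest relative depth by the low values of the table; the part of depth in these values was not tested. The ratio of G22709 to G22711 had a median of 1.53 and was 1.52 in MN02 Day 4, so both were high together there. It was highest in PENN03 Day 4 (3.94) and MN03 Day 4 (3.70), where G22709 was at 1407 and 1152 FPKM and G22711 at 357 and 312, and the third highest was PENN03 Day 0 (2.55).

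Whether the rows changed from Day 0 to Day 4 was tested in each treatment group with limma on log2(FPKM + 1) over all 11677 genes. In the valspodar group the fitted change was above 0 for 15 of 15 rows, with a median of 0.68 on the log2 scale against -0.01 over all genes, and no row passed the adjusted threshold (0% of all genes did). Row G22728 ran from 9478 through a median of 16383 to 44873 FPKM on Day 0 and from 8432 through 29185 to 83201 on Day 4, and the ranges overlapped. Its log2 change was 0.63 ± 0.35 (SE; limma adjusted p = 1). The smallest p was that of G22709, with a log2 change of 1.55 ± 0.62 (limma adjusted p = 1), from a median of 314 FPKM on Day 0 to 1152 on Day 4. At an unadjusted p under 0.05 there were 6 of the 15 rows, against 1.34% of all genes. That count was 2 without MN02 Day 4, 0 without dog PD05, 1 without MN02, MN07 or PD01, 2 without PENN03, 13 without PD03 and 14 without MN10. Of all genes, 1.02% were under 0.05 without MN02 Day 4, and between 0.779% and 2.12% with 1 dog left out.

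In the placebo group the fitted change was smaller and no row passed (0% of all genes did). Row G22728 had 16654, 19168, 24902, 46919, 53945 and 77625 FPKM in the 6 Day 0 libraries and 19098, 26207, 30253, 48966 and 130304 in the 5 Day 4 libraries. All but the PENN04 value of Day 4 lay within the Day 0 range. Its log2 change was 0.22 ± 0.59 (SE; limma adjusted p = 1). It was -0.12 without PENN04, 0.35 without PD04, 0.38 without PENN05 and 0.39 without MN08. The median over the 15 rows was 0.30, and it was -0.03 without dog PENN04, with 6 of 15 rows above 0. None of the 15 was under an unadjusted p of 0.05, against 3.68% of all genes, and the smallest p among them was that of G22711 (0.70 ± 0.67, limma adjusted p = 1). The smallest p of the 28 rows tested was that of G22714, 1 of the 13 rows at 0 in most libraries (limma adjusted p = 1).

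With the dog as a block, which compares the days within each dog, the same directions had smaller errors. In the valspodar group 14 of 15 rows had an unadjusted limma p under 0.05, against 11.3% of all genes. The change of G22728 was then 0.63 ± 0.28 (limma adjusted p = 0.440), and the smallest p was that of G22739 (0.87 ± 0.30, limma adjusted p = 0.413). In the placebo group 1 of 15 was under 0.05, G22711 with 0.88 ± 0.29 (limma adjusted p = 0.681), against 6.89% of all genes. In all 14 dogs 14 of 15 rows were under 0.05, against 16.6% of all genes, and the adjusted p of G22739, the smallest, was 0.166. No row passed the adjusted threshold in any fit with the block, where 0.00856% of all genes (1 gene) passed in all dogs and 0% in each of the other comparisons. Without MN02 these counts were 5 in the valspodar group, against 9.05% of all genes, and 11 in all dogs, against 14.8%. Without PENN04 and PD05 they were 4, against 8.74%, and 8, against 10.4%. In the placebo group the median change of the 15 rows was then 0.15, with 13 of 15 rows above 0. The 15 rows move together, so such a count is not one of 15 separate results.

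An exact sign-flip test over dogs gave like results. In all 14 dogs the mean change of G22728 was 0.53 ± 0.87 (SD), higher in 10 of 14 dogs (exact p = 0.0408, adjusted p over all genes 0.280). The smallest p was that of G22711, with 1.28 ± 1.75, higher in 10 of 14 dogs (exact p = 0.00732, adjusted p = 0.182). At an unadjusted exact p under 0.05 there were 14 of 15 rows in all dogs, against 16.6% of all genes. The count was between 8 and 15 with any 1 dog left out, at 8 without MN07, PD05 or PENN04 and at 9 without MN02 or PD01. In the valspodar group it was 12 of 15, against 10.2% of all genes, and from 0 (without MN02, MN07, PD01, PD05 or PENN03) to 15 (without PD03) with 1 dog left out. It was 4 without MN03 and 1 without MN06. With 1 dog left out the share of all genes ran from 12% to 18.5% in all dogs and from 6.76% to 12.1% in the valspodar group. With 5 placebo dogs the smallest p that the exact test allows is 0.0625, so 0% of genes could pass there.

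**Figure D4:**
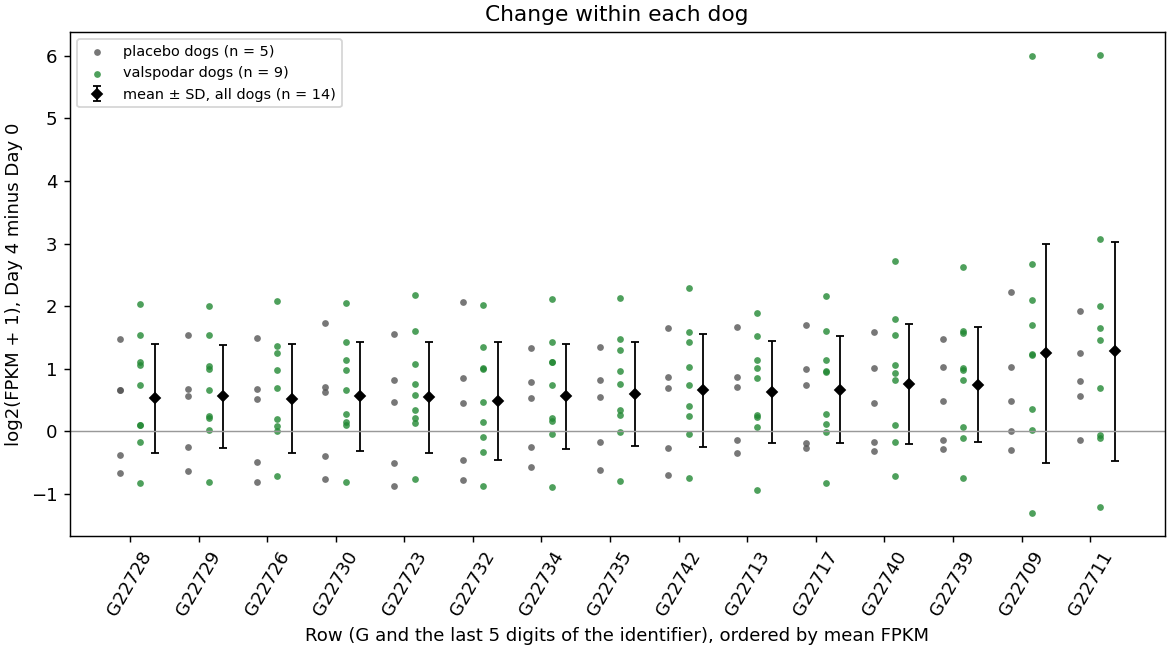
Difference of log2(FPKM + 1) between Day 4 and Day 0 (y axis) for each of the 15 rows, with a point per dog, grey for placebo (5) and green for valspodar (9), and the mean ± SD of all 14 dogs as a diamond. Most points lie above 0, dogs with lower values on Day 4 are found in both groups, and the highest points are those of MN02 for rows G22709 (5.99) and G22711 (6.01).

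With both treatment groups in one fit and no block, the change from Day 0 to Day 4 was 0.48 ± 0.30 for G22728 (limma adjusted p = 0.9997). Among the 15 rows it was largest for G22711, with 1.2002 ± 0.48 (limma adjusted p = 0.9997). No row passed (0% of genes did), and 4 of the 15 had an unadjusted p under 0.05, against 4.27% of all genes. Leaving out 1 dog took that count from 1 (without MN02) to 9 (without MN10 or PD03), with 2 without MN06, MN07, PD01, PD05, PENN03 or PENN04, 7 without MN08 and 8 without PD04 or PENN05, while the share of all genes ran from 2.13% to 5.99%. No row passed the test of whether its change differed between valspodar and placebo: the difference of the changes was 0.42 ± 0.63 for G22728 (limma adjusted p = 0.99999), with 0 of 15 rows at an unadjusted p under 0.05 against 0.694% of all genes, 3.67% with the dog as a block (0 of 15), and 0% of genes past the adjusted threshold. The smallest p of the 15 was that of G22709, with a difference of 1.002 ± 0.99 (limma adjusted p = 0.99999), and that of the 28 rows tested was that of G22721 (limma adjusted p = 0.99999). Without MN02 Day 4 the difference of G22709 was 0.50 ± 0.81. With 1 dog left out the difference of G22728 ran from 0.24 (without PD05) to 0.76 (without PENN04), with 0.25 without MN08 and 0.26 without PENN05.

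The treatment groups were also set against each other on each day. Before treatment, on Day 0, all 15 rows were lower in the valspodar group, with a median log2 difference of -0.81 against 0.01 over all genes, and no row passed (adjusted p = 1, with 0% of genes past the threshold). Row G22728 had medians of 35911 FPKM in 6 placebo and 16383 FPKM in 9 valspodar libraries, with overlapping ranges, and a log2 difference of -0.91 ± 0.38 (limma adjusted p = 1). The smallest p was that of G22742, with -0.88 ± 0.34 (limma adjusted p = 1). An unadjusted p under 0.05 was reached by 9 of 15 rows, against 4.31% of all genes. The count was 0 without PD04 or PENN05, 2 without PENN04, 4 without MN10, 14 without MN05 or MN09 and 15 without PD03, while between 3.70% and 7.25% of all genes were under 0.05 with 1 dog left out. When FPKM was scaled on the genes outside the run, the median of all genes moved to 0.15, that of the 15 rows to -0.65, and 2 of the 15 rows were under 0.05, against 10.7% of all genes, which is near that background. With quantile normalization, which gives equal ranks equal values, the median of the 15 rows was -0.42. Then 0 of 15 rows were under 0.05, against 454 of 11677 genes. With all groups in one fit 4 of 15 were, against 443 of 11677.

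Site codes were not spread evenly over the groups. Within site code MN the share of the run on Day 0 had a median of 11.2% in 3 placebo dogs and 10.1% in 5 valspodar dogs. Within PD it was 21.97% in 1 placebo dog and a median of 12.7% in 3 valspodar dogs, and within PENN it was 18.7% and 29.9% in 2 placebo dogs and 10.8% in 1 valspodar dog. Label numbers starting with 11 had medians of 18.7% (3 placebo) and 10.1% (5 valspodar), and those starting with 12 had 12.8% (3 placebo) and 11.7% (4 valspodar). With the site code as a term the log2 difference of G22728 on Day 0 was -0.84 (limma adjusted p = 0.936), and with the start of the label number it was -0.92 (limma adjusted p = 1).

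On Day 4, 14 of the 15 rows were lower in the valspodar group, with a median log2 difference of -0.38, and none passed (0.00856% of genes, 1 gene outside the run, did). The difference of G22728 was -0.49 ± 0.51 (limma adjusted p = 0.997), and the smallest p of the 15 was that of G22732, with -0.60 ± 0.58 (limma adjusted p = 0.997), while G22719 had the smallest of the 28 rows tested (limma adjusted p = 0.997). None of the 15 had an unadjusted p under 0.05, against 4.15% of all genes. Without PENN04 the median was 0.02 and 9 of 15 rows were above 0. The difference of G22728 was then -0.06, and it was -0.27 without MN10 and -0.75 without MN08. With quantile normalization of all libraries the median of the 15 rows was -0.13, with 13 of 15 rows below 0.

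Markers of 2 other cell types moved with the rows. The neutrophil genes with an identifier were CSF3R, a growth factor receptor of granulocytes, ITGAM, an integrin of myeloid cells, and MMP9, a matrix protease. Those of macrophages were C1QB and C1QC, chains of complement C1q. These 5 of 10 listed markers could be paired with an identifier because they stand in the study's supplementary lists of genes that differed between groups of these samples, so they are not an independent choice. The summed neutrophil markers ran from 0.379 to 198 FPKM with a median of 5.25, and were highest in PENN04 Day 4. The summed macrophage markers ran from 14.4 to 593 FPKM with a median of 87.9, and were highest in PD05 Day 4. Those are the libraries with the highest and second highest share of the run.

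Per group, the macrophage sum had medians of 86.1 (from 14.4 to 169) in placebo Day 0, 97.6 (from 35.3 to 143) in placebo Day 4, 69.1 (from 33.5 to 263) in valspodar Day 0 and 199 (from 17.0 to 593) in valspodar Day 4. The neutrophil sum had medians of 3.99 (from 1.83 to 33.0), 11.9 (from 2.40 to 198), 5.03 (from 0.379 to 25.9) and 5.25 (from 1.09 to 20.4) in the same order. None of the 5 markers was at 0 in a library. Within dogs, the macrophage sum moved from Day 0 to Day 4 in the direction of the share of the run in 12 of 14 dogs, and the neutrophil sum in 11 of 14.

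Across the 14 dogs, the log2 change of G22728 was related to that of the macrophage sum with Pearson's r = 0.82 (permutation p = 0.00056, adjusted over the 2 lists 0.00109) and Spearman's rho = 0.85 (permutation p = 0.00021, adjusted 0.00036). With the neutrophil sum r was 0.74 (permutation p = 0.00109, adjusted 0.00109) and rho 0.84 (permutation p = 0.00036, adjusted 0.00036). Without the 2 dogs farthest from the median change of the markers, r was 0.75 for macrophages (PENN04 and PD05 left out) and 0.77 for neutrophils (PENN04 and PD03 left out). In the 9 valspodar dogs alone r was 0.79 for macrophages and 0.90 for neutrophils, in the 8 dogs of site code MN 0.84 and 0.53, in 8 dogs with label numbers starting with 11 0.73 and 0.77, and in 6 starting with 12 0.97 and 0.88. This relation was chosen after the values were seen, and the markers stand in lists from these same samples. Its p values are therefore a description and not a test of the relation. It was not particular to the markers: 3.26% of all 11676 other genes had a change related to that of G22728 at an adjusted p under 0.05 by the same permutation test, 12 of the other 14 rows among them, and C1QB (r = 0.82, permutation p = 0.00043, adjusted p = 0.0342), C1QC and CSF3R too, while ITGAM and MMP9 did not pass. In a bulk node, a change in the number of cells of a type and a change in RNA per cell cannot be told apart, and the part of these cell types in the changes of the rows was not tested.

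**Figure D5:**
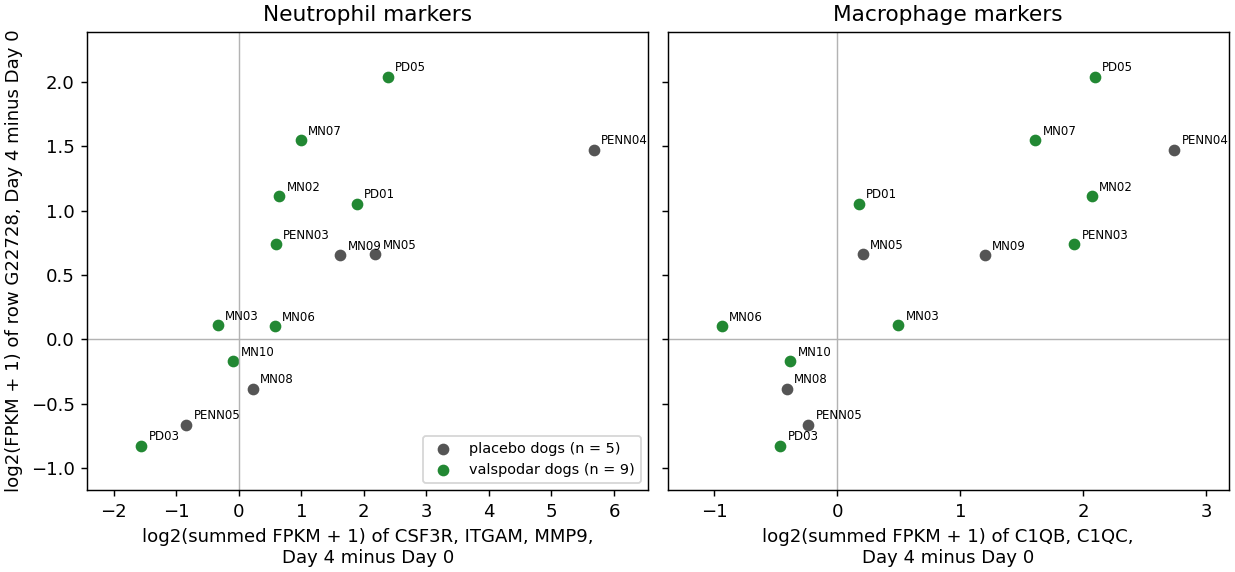
Change of row G22728 from Day 0 to Day 4 in log2(FPKM + 1) (y axis) against the change of the summed neutrophil markers (left) and macrophage markers (right), with a point per dog, grey for placebo (5) and green for valspodar (9). The points rise from PD03 at the lower left to PD05 and PENN04, with Pearson's r of 0.74 for neutrophil and 0.82 for macrophage markers over 14 dogs.

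The 13 rows above 0 in some libraries held 35 values above 0 out of 377, spread over 17 libraries. These 35 values ran from 1926 FPKM (G22715 in PENN05 Day 4) to 12827 FPKM (G22719 in MN02 Day 4, the library of lowest relative depth). Thus no value of these rows lay between 0 and 1926 FPKM. FPKM is scaled by length and by the fragments of the library, and neither row lengths nor read numbers were given. Whether these values are high levels or the smallest step above 0 that a row can show was therefore not tested. Rows G22715, G22716, G22718, G22720, G22731, G22733 and G22737 were above 0 in 1 library each. Row G22724 was above 0 in 7 libraries, G22719 in 6, G22721 in 5, G22744 in 4, and G22714 and G22743 in 3 each.

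By day, 11 of the 35 values were in 7 of 15 Day 0 libraries and 24 in 10 of 14 Day 4 libraries, and PENN04 Day 4 and PD05 Day 4 had the most, with 5 rows each. In MN05 Day 4 and in PENN04 Day 4, G22714 and G22719 had the same value, 4241 FPKM and 4644 FPKM. Multiplied by the relative depth of the library, the values of a row lay closer together in 5 of the 6 rows with more than 1 value: those of G22744 spanned 1.10-fold in place of 1.72-fold, those of G22714 spanned 1.06-fold in place of 1.75-fold, and those of G22719 spanned 1.68-fold in place of 4.10-fold. Those of G22743 went the other way, from 1.03-fold to 1.34-fold. An exact 0 can be a failed estimate, so it is given only as listed, and no fold change is given for these 13 rows. None passed in any comparison with limma.

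Outside the run, the genes whose FPKM followed the summed FPKM of the run most closely were far lower in level. Over the 29 libraries Spearman's rho was 0.77 for ENSCAFG00000019511, 0.75 for ENSCAFG00000002945, 0.74 for ENSCAFG00000022010, 0.73 for ENSCAFG00000028220 and 0.73 for ENSCAFG00000014836. Their mean levels were 8.89, 1.69, 247, 22.7 and 12.9 FPKM in the same order. ENSCAFG00000022010 had the widest range of these as a difference in FPKM, from 12.6 to 6232. As a ratio that of ENSCAFG00000028220 was wider, from 0.356 to 523 FPKM. By comparison, each of the 15 rows had a rho of at least 0.87 with the sum they belong to, and the median over the 11649 genes tested outside the run was -0.005.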

How the data were processed

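Total RNA from lymph node biopsies was sequenced as paired ends. Per the labels and the study's methods, the authors trimmed reads with Trimmomatic 0.33, aligned them with HISAT2 2.0.2 to CanFam3, and deposited FPKM per gene from Cufflinks 2.2.1 and Cuffnorm with classic FPKM scaling and weighting of reads with several alignments. Strandedness and annotation release are not given in the sources used here. No gene lengths or read counts were used here. Relative depth was read from the steps of low values, and the precision it gives was not computed.

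Samples were grouped by treatment and day, with the dog as the replicate. The 11677 genes whose mean reached 1 FPKM were tested as log2(FPKM + 1) with limma 3.58.1 (R 4.3.3), with Benjamini-Hochberg adjustment over all of them and a threshold of 0.05. The pseudocount understates changes of low genes. Exact two-sided sign-flip tests over dogs and two-sided permutation tests of correlations (100000 permutations) ran over the same genes and were adjusted over all of them rather than over the rows of the run, which departs from the plan. Scripts were tested on simulated data. Deviations of the 2 days of a dog from their group means had a median correlation of 0.504 (0.199 or more in each of 14 dogs), against -0.0533 between dogs, so dogs pair the samples. Alternatives were the pseudocount, the filter, the scaling, robust and joint fits, the dog as a block and leaving out each dog. Leaving out named libraries and terms for site code or label number were added after seeing the data.

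Any row of the run could be named. Given in full are the 5 highest by mean, the smallest p per comparison and every row past the limma threshold, and outside the run the 5 genes most like its sum. Rows past the threshold of a correlation are given as counts and ranges, with some of them named. The run and the lists were chosen with earlier results of these data known. Of 151 genes in the other lists, 5 had an identifier and the rest were not analysed here.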

Additional observations from a re-analysis of the deposited data

Results flagged for a closer look

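Of 130 groups of 4 to 10 libraries, 11 held a library set apart from the rest of its group by Dixon's criterion, where chance gives about 1 in 20. MN02 accounts for 5 of them. On Day 4, G22709 was at 18088 FPKM and took 8.77% of the sum of the 15 rows, and G22711 took 5.76%. G22728 took 15.6% there, and 17.1% in MN02 Day 0. The shares in a library are parts of the same sum, so those of MN02 Day 4 are not separate results. In PD03, the run took 22.5% of the summed FPKM on Day 0, G22709 was at 1669 FPKM on Day 0, and G22732 took 13.4% of the 15 rows on Day 4. G22723 took 13.2% of the 15 rows in MN08 Day 4. The ratio of G22709 to G22711 stood apart in PENN04 Day 4 (1.89) and in PENN03 Day 0 (2.55).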

How the results depend on the processing

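No row of the run passed the adjusted limma threshold in any comparison under the settings run, so the counts of rows called were 0 throughout, with the dog as a block and with 1 dog left out too. The log2 change of G22728 from Day 0 to Day 4 in the placebo group was 0.22. It turned to -0.22 without the libraries PENN04 Day 4 and PD05 Day 4, and with 1 dog left out it ran from -0.12 (without PENN04) to 0.39 (without MN08). These fits do not have the dog as a block. With the block the change was 0.35, and it was 0.07 without dogs PENN04 and PD05. Quantile normalization gives the top rank of every library the same value, and the difference of G22728, the top rank in all but the pair from MN10, was then 0 in the 3 comparisons of days and in the difference of the changes, and -0.05 between treatments on either day. Of 14 rows related to G22728 on Day 0, 9 passed without the 2 farthest libraries. Of 15 rows tested for a relation of Day 0 to Day 4 levels, 1 passed, against 3 when scaled on the genes outside the run, 0 without the 2 farthest dogs and 0 without dog MN02, where 57.9%, 48.9%, 60% and 55.7% of all genes passed in that order. The difference of G22728 between treatments on Day 4 was -0.49, and -0.06 without PENN04. Leaving out 1 dog left 190 results with their direction and their side of the threshold and reversed 1, and the other settings left 161 so, moved 8 and reversed 1. Most are calls that stayed at 0 or values that did not pass, and the size of a value could still change. The lengths of the rows were not given, so the share of fragments taken by the run was not run.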
